A study of Mus musculus with 12 samples.

Results

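The uninjured dorsal root ganglion of the mouse was described from the 3 naive libraries of a 12-library RNA-seq series, by the level of each gene in RPKM, a read count per length of gene and per size of library, and its rank. A gene was ranked when it had 1 RPKM or more in each of the 3 libraries, which 12495 of 24060 genes did (51.9%), and rank 1 is the highest mean. The animals were male C57BL/6J mice, adult at 9 to 10 weeks of age, either naive or 1, 3 or 7 days after spared nerve injury, with 3 libraries in each group. Spared nerve injury is a surgical model of neuropathic pain in which surgeons ligate and cut both the common peroneal and the tibial nerve while the sural nerve is left in place. Naive mice had no operation stated in the labels, and a sham-operated group was not analysed here. The labels do not say whether a library came from 1 animal or from several, so p-values take in only the spread among these libraries, which may be technical. Both marker genes given for the tissue were high in each naive library. Scn10a, the sodium channel subunit Nav1.8 of nociceptors, had 198, 216 and 206 RPKM in naive replicates 1, 2 and 3 (rank 72). Calca, the gene of the peptide CGRP, had 263, 186 and 202 RPKM (rank 64).

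A dorsal root ganglion holds the cell bodies of sensory neurons that carry touch, temperature, itch and pain from the periphery to the spinal cord. Each cell body is wrapped by satellite glia, and the axons that leave it are accompanied by myelinating or non-myelinating Schwann cells. Sensory neuron classes differ in their ion channels, growth factor receptors and peptides, so the levels below are sums over neurons of many kinds and over the glia, fibroblasts, vessels and blood cells of the tissue. In such bulk samples fewer cells of a type and less RNA per cell cannot be told apart.

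Naive library sizes were 14333000, 16785000 and 15178000 reads, within the range of all 12 libraries (13627000 to 17953000 reads). In the naive libraries a single read over 1 kb equalled 0.0596 to 0.0698 RPKM, so a gene of that length at the threshold of 1 RPKM rested on more than 10 reads. Across genes, the log2 levels of the naive libraries correlated with Pearson's r of 0.976 to 0.986, which is a description over genes that are not independent replicates. Naive replicate 1 stood apart in skeletal muscle genes. The summed level of 15 muscle markers was 52.8 RPKM in naive replicate 1, 8.39 in replicate 2 and 3.93 in replicate 3, against 2.40 to 9.68 in 8 of the 9 injured libraries and 40.5 in day 7 replicate 2. Values after ± are SDs over the 3 naive libraries, except those of log2 differences after injury, which are standard errors (SE). RPKM is a level per length of gene, yet it still went with length and GC content. Of 5 groups of ranked genes by length, the shortest had a median naive mean of 6.21 RPKM and the longest 13.5. The longest group held 42 of the 100 highest genes. By GC content the median went from 11.5 RPKM in the lowest group to 4.43 in the highest. The cause was not tested, and ranks are not corrected for it. The order of genes was read from whether their 3 values overlapped, with no test between genes.

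The naive profile was led by a few very abundant RNAs above a long slope of moderate levels. Of the ranked genes, 3 had a mean of 1000 RPKM or more, 253 had 100 or more and 5076 had 10 or more, and the median was 7.55 RPKM. The 10 highest genes held 6.28% ± 0.391 of the summed RPKM of ranked genes, the 30 highest 10.0% ± 0.326 and the 100 highest 17.3% ± 0.285 (SD, n = 3). Counted in reads, which weigh long genes more, the same 10 genes held 9.05% ± 0.673 and the same 100 held 22.4% ± 0.793. Among the 100 highest, 94 were annotated as protein-coding. At the lower end, 4301 genes had no read in any naive library, 5733 were above 0 but under 1 RPKM in each, and 1531 reached 1 RPKM in only 1 or 2 libraries. The gene just inside the threshold was Grtp1, with 1.0005 RPKM in its lowest library, and the gene just outside was Plcd3, with 0.9999.

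**Figure D1:**
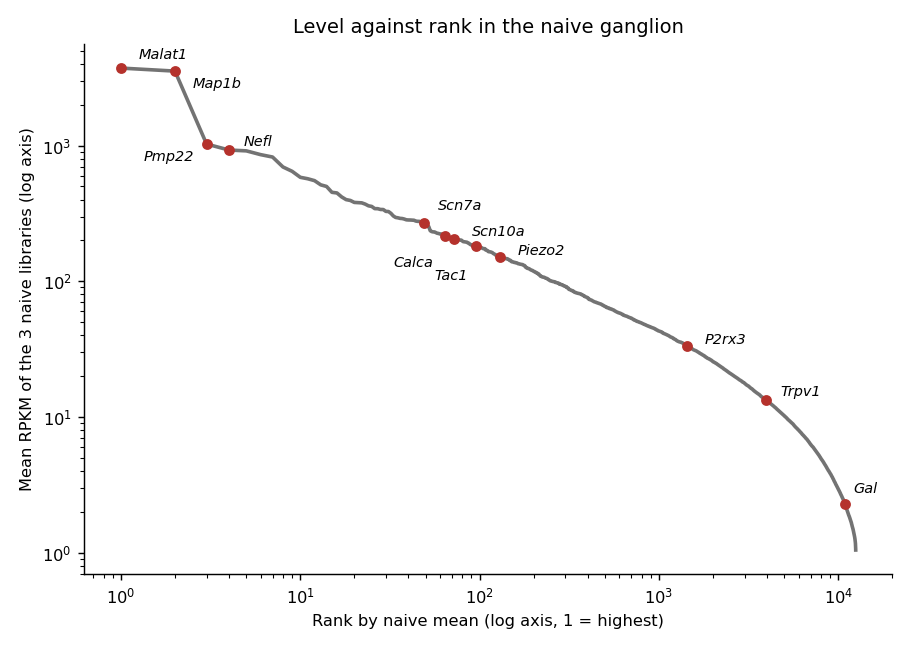
Mean RPKM of the 3 naive libraries (vertical, log axis) against rank (horizontal, log axis) for the 12495 ranked genes, as a line, with selected genes as red points. Malat1 and Map1b stand above 3000 RPKM, Scn7a, Calca, Scn10a, Tac1 and Piezo2 lie between 151 and 267 RPKM, and P2rx3, Trpv1 and Gal lie further down the slope.

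Malat1, a nuclear long noncoding RNA, held the first rank with 3380, 4039 and 3756 RPKM. Map1b, a microtubule-associated protein of axons (chromosome 13, 99421446 to 99516540, mm10), was second with 3102, 3833 and 3679 RPKM. Malat1 was the higher of these 2 in each library, although their ranges overlapped. Pmp22, the peripheral myelin protein of compact myelin, held rank 3 with 1274, 855 and 950 RPKM, and Nefl, the light neurofilament chain, held rank 4 with 1118, 859 and 804 RPKM. These 2 genes also overlapped each other, while both stayed below Map1b in every library. Rank 5 belonged to Prune2 (914 ± 54.1 RPKM).

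The rest of the 30 highest were genes of several kinds. Calm2 (696 ± 178 RPKM) encodes the calcium sensor calmodulin. Snap25, a membrane fusion protein of nerve terminals, had 646 ± 109 RPKM. Ank2 (583 ± 50.9) and Sptbn1 (500 ± 31.3) encode an ankyrin and a spectrin that link the membrane to the cytoskeleton, and Dst (378 ± 24.1) a very large linker protein. The motor genes Kif21a (380 ± 17.9) and Kif1b (338 ± 30.7) encode kinesins that carry cargo along microtubules. The chaperones Hspa8 (356 ± 99.8) and Hsp90ab1 (343 ± 81.2), the ATP synthase subunit Atp5b (513 ± 155) and the secreted protein Fstl1 (452 ± 40.5) were also among them. Most of the remaining places went to Ndrg4, Dgkh, Cd24a, Snhg11, Map1a, Ywhaz, Stmn2, Rab6b, Akap12, Nefm and 3 short RNA genes, at 327 to 858 RPKM. No predicted gene was among the 30.

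The top of the list was largely shared with injured ganglia. Of the 30 highest naive genes, 27, 26 and 27 were also among the 30 highest by mean at days 1, 3 and 7, and single naive libraries shared 25 to 27 with the naive mean. Single injured libraries shared 23 to 28. Hsp90ab1, Hspa8 and Rab6b were outside the 30 at day 1, Dgkh, Kif1b, Map1a and Rab6b at day 3, and Dgkh, Hsp90ab1 and Rab6b at day 7. Of the 100 highest, 91, 82 and 87 were shared by group mean, while single naive libraries shared 91 to 93 and single injured libraries 80 to 88.

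The 3 short RNA genes ranked this high on few reads, since a short length multiplies each read. AF357425 (69 bases by the length implied in the values, rank 6) had 858 ± 21.3 RPKM from 866 to 966 reads, and AF357359 (30 bases, rank 7) had 823 ± 108 RPKM from 334 to 475 reads. Both are small nucleolar RNA genes that lie within exons of the long noncoding RNA Rian, which had 120 RPKM (rank 197). Mir568 (rank 16) had 451, 408 and 484 RPKM from 536, 568 and 610 reads, and lies within an exon of Zbtb20, a transcription factor gene with 66.2 RPKM (rank 490). The Mir568 locus is at chr16:43640655-43640737 on the plus strand of GRCm38.p6, and its 83 bases equal the length implied by the values. Its sequences are shown because the value counts reads over the hairpin and not the mature miRNA: the first line has the mature miRNA in capitals within the RefSeq hairpin, and the second has the seed (bases 2 to 8) in capitals.
Mir568 hairpin: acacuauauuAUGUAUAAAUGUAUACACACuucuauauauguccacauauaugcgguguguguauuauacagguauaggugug
mmu-miR-568: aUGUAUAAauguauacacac
The labelled kits are not small RNA kits, and reads of the surrounding exon and of the miRNA precursor cannot be told apart in these values. In all, 255 ranked genes were shorter than 200 bases, and 220 of them lay within a longer annotated gene. Beyond the 3 above, the highest was Snord118 at 160 ± 1.97 RPKM (rank 119).

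The list of neuron cytoskeleton genes and general neuron markers was the most abundant of the 16 functional lists. Of its 37 members, 35 were ranked, 21 stood among the 1000 highest genes, and together they held 3.65% to 3.82% of all RPKM in the naive libraries. General markers such as Snap25 and Uchl1 made up 19 of the 37. Map1b alone gave 3102, 3833 and 3679 of the 8939, 8127 and 7951 RPKM of the list in replicates 1, 2 and 3. The neurofilament chains were ordered Nefl (927 ± 167 RPKM), Nefm (551 ± 86.0) and Nefh (284 ± 45.8) with no overlap, and the ratio of Nefl to Nefm was 1.68 ± 0.0459 within libraries. Prph, the intermediate filament peripherin of small-diameter neurons, had 201, 137 and 151 RPKM, and Ina, alpha-internexin, had only 6.68 ± 2.44. Among tubulins, Tuba1a (226 ± 60.3) and the beta tubulins Tubb4a (144 ± 31.4) and Tubb3 (67.0 ± 13.3) led. Tuba1a and Tuba1b are near-identical in sequence, so their split is uncertain. Stmn2, a neuronal regulator of microtubules, had 343 ± 83.7 RPKM, whereas Stmn4 had 1.42, 0.870 and 1.87 and was not ranked. Other neuron markers included Uchl1 (202 ± 42.7), the RNA-binding protein Elavl2 (97.5 ± 5.52), Sncg (95.1 ± 29.9) and Avil (79.5 ± 10.5), the last an actin-binding protein of sensory neurons. Calb2 was under 1 RPKM in each naive library.

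Sodium channels of the peripheral type dominated their family. Of 15 subunits, 14 were ranked and 6 stood among the 1000 highest genes. Scn7a, the channel subunit Nax, which is also expressed by glia, was the highest with 263, 270 and 270 RPKM (rank 49), above every other subunit in each library. Scn10a followed, and Scn9a, the Nav1.7 subunit of nociceptors, had 186, 198 and 202 RPKM (rank 82). The ranges of Scn10a and Scn9a overlapped, and their ratio was 1.06, 1.09 and 1.02 within replicates 1, 2 and 3. Scn11a, the Nav1.9 subunit, came next with 142, 137 and 139 RPKM, below the lowest value of Scn9a.

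The sodium channels shared with the central nervous system were lower. Scn8a, the Nav1.6 subunit of nodes of Ranvier, had 54.4, 67.4 and 64.7 RPKM, and Scn1a, the Nav1.1 subunit, had 51.6, 54.6 and 55.8, so these neighbours overlapped. Nalcn, a leak channel, had 13.6 ± 0.508, Scn2a1 11.6 ± 0.258 and Scn3a 3.15 RPKM on average. Scn4a, the Nav1.4 subunit of skeletal muscle, averaged 0.98 RPKM and was not ranked. Of the beta subunits, Scn4b (26.4 ± 1.08) and Scn3b (20.9 ± 2.85) were above Scn2b (4.85 ± 0.730).

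Potassium channels were the largest channel list, and 55 of its 63 members were ranked. The delayed rectifier subunit Kcna1 (148, 178 and 177 RPKM, rank 111) overlapped with Kcna2 (136, 155 and 161), and Kcna2 overlapped with Kcnb2 (129, 135 and 146). Kcnh7, of the ether-a-go-go related group, followed without overlap at 112, 122 and 124 RPKM. Kcnd1, an A-type subunit, had 64.3 ± 6.48, its relative Kcnd3 47.8 ± 5.11 and the modifier subunit Kcng3 44.7 ± 3.66. Kcnq3, a subunit of M-current channels, had 16.5 RPKM. Auxiliary subunits of A-type channels were also high, with Kcnip4 at 65.5 ± 13.5, Dpp10 at 49.7 ± 1.36 and Dpp6 at 46.3 ± 4.13 RPKM. Among leak channels Kcnk1 led with 17.2 ± 3.41 RPKM, and Kcnk18, the TRESK channel of sensory neurons, had 4.49 ± 0.842. The sodium-activated channel Kcnt1 (36.2 ± 1.03) and the large-conductance calcium-activated channel Kcnma1 (24.9 ± 0.714) led their group. Kcnj10, the inward rectifier of satellite glia, had 21.1, 21.1 and 21.4 RPKM. Kcna3, Kcna5, Kcnk3, Kcnk12, Kcnj9, Kcnj11 and Kcnab3 did not reach the threshold on average, and Kcnd2 reached it in only some libraries.

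Among calcium channels, the N-type pore Cacna1b (68.2, 73.9 and 75.1 RPKM) stood above the P/Q-type Cacna1a (32.8 ± 3.54) and the L-type Cacna1c (29.0 ± 1.70), and the latter pair overlapped. The T-type pore Cacna1h, known from low-threshold mechanoreceptors, had 6.93 ± 0.706 RPKM, while Cacna1g and Cacna1i did not reach 1 RPKM in all libraries. Cacna2d1, the alpha2delta subunit bound by gabapentinoid drugs, was the most abundant subunit with 104, 106 and 112 RPKM, above Cacnb4 (67.2 ± 3.56) and Cacnb3 (37.3 ± 7.23). Hcn2, a pacemaker channel opened by hyperpolarization, averaged 1.2 RPKM and was not ranked.

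In the TRP family Trpm8, Trpv1 and Trpa1 were not the highest. Trpm7 (29.8 ± 0.303 RPKM) and Trpm3 (25.4 ± 2.37) were above them. Trpm8, the cold and menthol receptor, had 17.0, 20.2 and 16.4 RPKM. Trpv1, the capsaicin and heat receptor, had 13.2 ± 1.28 RPKM, which overlapped with Trpa1, the irritant receptor (13.0 ± 0.732). Of the 15 channels of the list 14 were ranked, and Trpv4 was under 1 RPKM in each library.

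Piezo2, the touch channel, had 148, 155 and 149 RPKM (rank 130), 196 ± 25.5 times the level of Piezo1, which was under 1 RPKM. Tmem63b (29.1 ± 4.13) and Tmem63c (22.7 ± 0.982), related to osmotically gated channels, were next among the mechanical and acid-sensing genes. The acid-sensing channels Asic3 (14.1 ± 3.68) and Asic2 (13.6 ± 2.17) overlapped, and Asic1 (5.98 ± 0.308) was lower. Stoml3, a stomatin-like partner of mechanotransduction, averaged 0.26 RPKM.

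Ano3, an anoctamin membrane protein, had 153, 162 and 158 RPKM (rank 122) and was far above Ano6 (30.8 ± 0.435), Ano4 (17.7 ± 1.03) and Ano1 (3.19). Slc12a2, the cotransporter that loads neurons with chloride, had 69.1, 66.0 and 75.7 RPKM, whereas Slc12a5, the cotransporter that extrudes chloride in central neurons, averaged 0.31. Their ratio was 298, 155 and 288 in naive replicates 1, 2 and 3.

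**Figure D2:**
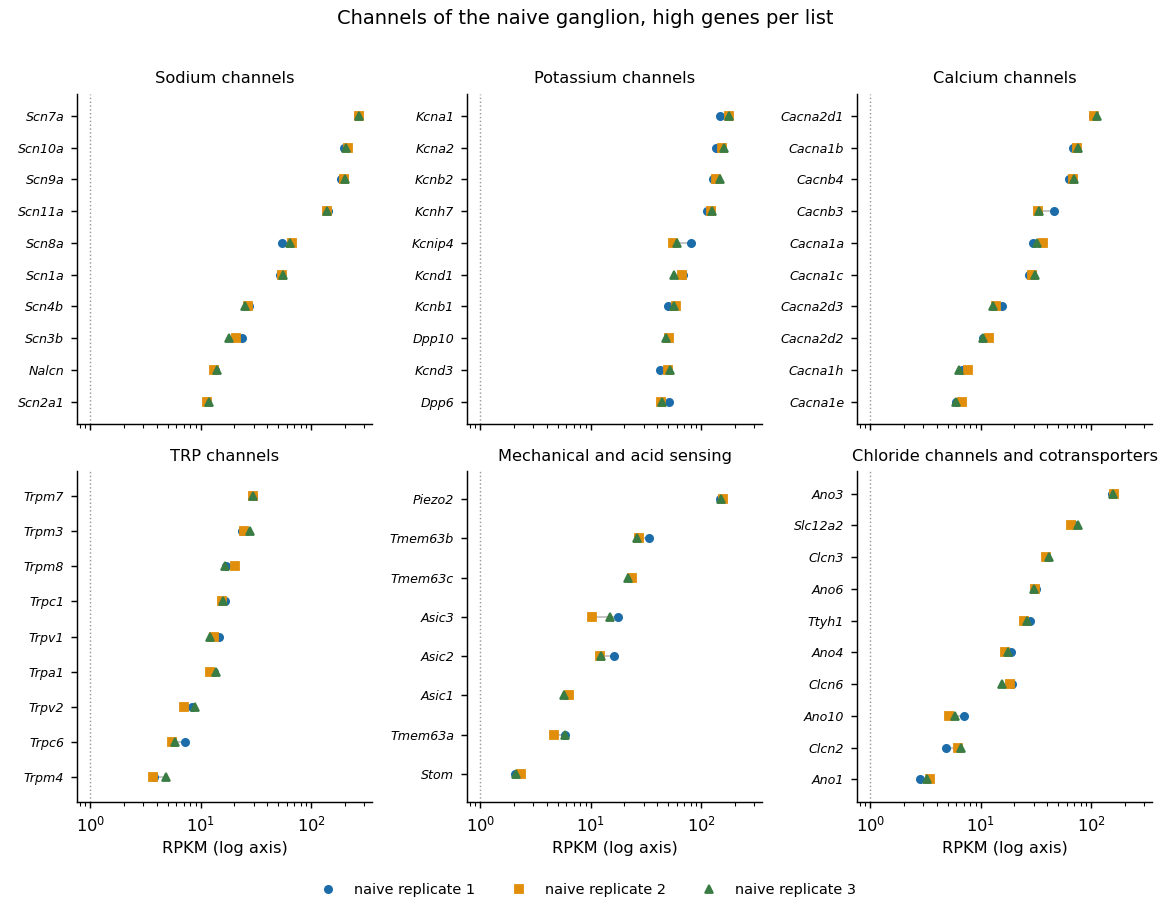
RPKM (horizontal, log axis) of genes from the 10 highest of each of 6 channel lists in naive replicates 1 (circles), 2 (squares) and 3 (triangles), with a grey line over their range and a dotted line at 1 RPKM. Scn7a, Kcna1, Cacna2d1, Piezo2 and Ano3 head their lists, and most genes have their 3 values close together against the distance between the top and the bottom of a list.

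Ligand-gated channels were led by a kainate receptor. Grik1 had 120, 103 and 106 RPKM (rank 218), 3.77 ± 0.303 times the level of Gria4, the highest AMPA receptor subunit (29.2 ± 0.247). Gria3 (27.2 ± 0.725) and Gria2 (16.3 ± 0.827) followed, and the NMDA receptor subunits Grin2a, Grin2b, Grin2c and Grin2d were each under 1 RPKM while Grin1 had 4.85. The GABA-A receptor subunit Gabra2 had 23.1 ± 3.11 RPKM. P2rx3, the ATP-gated channel of nociceptors, had 35.5, 34.9 and 29.7 RPKM, whereas its partner subunit P2rx2 was under 1. Nicotinic subunits were led by Chrna7 (14.2 ± 2.14) and Chrna6 (12.3 ± 0.854), and Htr3a, a serotonin-gated channel, had 17.5 ± 3.67. In total 35 of 46 ligand-gated channel genes were ranked, and none of the rest exceeded 1 RPKM in any naive library.

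Of 87 G protein-coupled receptors, 59 were ranked and 22 were under 1 RPKM in each library. Gpr158, an orphan receptor, was the highest with 66.7 ± 5.97 RPKM. Mrgprd, the beta-alanine receptor of non-peptidergic nociceptors, had 48.3, 48.0 and 42.4 RPKM, above Mrgprb5 (31.6 ± 2.35) and Mrgprb4 (28.9 ± 2.64), which overlapped. The chloroquine receptor Mrgpra3 of itch neurons had 8.71 ± 0.671. Members of the Mrgpra group are close copies of each other, so their separate levels are uncertain. Oprm1, the mu opioid receptor, had 39.7 ± 4.36 RPKM, 11.3 ± 1.72 times the level of Oprd1, the delta receptor (3.58 ± 0.712), and Oprk1, the kappa receptor, had 1.46 ± 0.231.

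Other inhibitory receptors reached similar levels. The 2 subunits of the GABA-B receptor, Gabbr2 (37.5 ± 2.15) and Gabbr1 (33.9 ± 0.938), were the highest of that group, followed by the metabotropic glutamate receptor Grm7 (24.0 ± 0.783) and the cannabinoid receptor Cnr1 (13.8 ± 0.529). The neuropeptide Y receptors Npy1r (12.1 ± 1.56) and Npy2r (10.7 ± 1.50) were ranked although their ligand Npy was not. Of receptors for inflammatory and itch mediators, F2rl2 (34.3 ± 4.60), the purine receptor P2ry1 (33.5 ± 1.25) and the lysophosphatidic acid receptor Lpar1 (27.8 ± 0.854) led. The bradykinin receptors Bdkrb1 and Bdkrb2, the histamine receptor Hrh1, the protease receptor F2rl1 and the substance P receptor Tacr1 each averaged under 1 RPKM.

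Growth factor and cytokine receptors were nearly all present, with 28 of 30 ranked. The signalling subunits of the interleukin-6 family, Lifr (195, 217 and 227 RPKM, rank 66) and Il6st, known as gp130 (182, 207 and 199, rank 81), overlapped and were the highest. Osmr (25.3 ± 1.27) and Il31ra (13.2 ± 1.12), which form the receptor of the itch cytokine interleukin-31, and Cntfr (8.77 ± 1.97) were lower. Ret, the signalling receptor of the GDNF family, had 86.8, 87.7 and 85.6 RPKM. Its coreceptors were ordered Gfra2 (68.8 ± 11.0), Gfra1 (25.4 ± 2.34), Gfra3 (9.58 ± 2.17) and Gfra4 (3.09 ± 0.374). Among neurotrophin receptors, the shared receptor Ngfr (58.2 ± 12.6) and Ntrk3 (53.7 ± 1.40), the neurotrophin-3 receptor of proprioceptors, were above Ntrk2 (27.6 ± 1.27), the receptor of brain-derived neurotrophic factor. These are levels over the whole gene, and the isoforms of Ntrk2 and Ntrk3 without a kinase domain were not separated.

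Neuropeptides spanned a wide range, and 8 of the 27 in the files were ranked. Calca, given above, was followed by Tac1, which encodes substance P (221, 151 and 170 RPKM, rank 95). Both were highest in naive replicate 1, and the ratio of Calca to Tac1 stayed at 1.19, 1.23 and 1.19. Calcb, which encodes the beta form of CGRP, had 52.6, 37.4 and 39.2 RPKM, and Calca was 5.04 ± 0.0935 times as high. Nmb (45.1, 31.9 and 31.2), the itch-related peptide neuromedin B, and Adcyap1 (19.4, 15.7 and 18.4), which encodes PACAP, came next. Nts (3.57 ± 1.07), Cartpt (3.26 ± 0.715) and Gal (2.27 ± 0.437) were near the lower end. Sst, Nppb, Nmu, Penk and Npff reached 1 RPKM in some libraries only, 14 peptides were under 1 RPKM in each, and among them Grp, Ucn, Avp, Oxt and Tac2 had no read. Genes for granins and peptide processing were abundant, with Scg3 at 322, 249 and 274 RPKM (rank 43), carboxypeptidase E (Cpe) at 139 ± 30.4, Scg2 at 58.7 ± 14.9 and the convertase Pcsk2 at 31.3 ± 1.84.

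The promoters of Calca, Tac1 and Scn10a are shown because these 3 genes mark the peptidergic and nociceptor character of the tissue and carry the same short motif. Each runs from 250 bases before to 50 bases after the RefSeq start, 5′ to 3′ on the strand of the gene, and capitals mark TGACG or its reverse complement CGTCA, the core bases of the site bound by CREB-type factors. Coordinates are GRCm38.p6: chr7:114636308-114636607 on the minus strand for Calca, chr6:7554811-7555110 on the plus strand for Tac1 and chr9:119718983-119719282 on the minus strand for Scn10a.
Calca: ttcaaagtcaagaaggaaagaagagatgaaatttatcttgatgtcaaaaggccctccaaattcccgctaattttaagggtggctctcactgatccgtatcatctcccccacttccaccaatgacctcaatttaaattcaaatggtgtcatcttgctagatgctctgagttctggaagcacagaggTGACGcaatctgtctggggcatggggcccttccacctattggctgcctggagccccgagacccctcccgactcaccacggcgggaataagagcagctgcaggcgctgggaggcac
Tac1: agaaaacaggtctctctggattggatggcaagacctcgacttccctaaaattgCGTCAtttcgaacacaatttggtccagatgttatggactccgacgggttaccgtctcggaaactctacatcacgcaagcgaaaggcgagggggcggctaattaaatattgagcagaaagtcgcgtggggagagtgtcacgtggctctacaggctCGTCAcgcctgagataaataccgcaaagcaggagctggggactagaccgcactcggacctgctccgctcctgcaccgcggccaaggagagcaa
Scn10a: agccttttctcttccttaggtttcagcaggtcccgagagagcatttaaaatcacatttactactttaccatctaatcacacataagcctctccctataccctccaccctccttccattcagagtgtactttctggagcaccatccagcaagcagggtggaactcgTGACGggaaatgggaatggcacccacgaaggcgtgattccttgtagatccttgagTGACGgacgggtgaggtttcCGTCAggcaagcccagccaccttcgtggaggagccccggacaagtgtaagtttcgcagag
The motif starts 65 bases before the start in Calca, 197 and 43 bases before it in Tac1, and 85, 30 and 10 bases before it in Scn10a. It was searched on both strands and is present in 20.8% of the 32851 promoters of this length in the table and in 32.3% of the 9225 that belong to ranked protein-coding genes. Of the 8 ranked peptide genes, 7 had a promoter in the table and 6 of these held the motif. Of the 19 other peptide genes, 15 had a promoter and 6 held it. A match describes letters in this window and no binding was measured.

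Transcription factors of sensory neuron identity had 16 of 21 members ranked. Klf7 was the highest with 172, 191 and 195 RPKM (rank 90), followed without overlap by Etv1 (79.6 ± 3.64), a factor of proprioceptors. Runx1, which sets the non-peptidergic nociceptor class, had 47.8 ± 2.07 RPKM, Pou4f1, the pan-sensory factor Brn3a, 44.9 ± 1.81, Prdm12, required for nociceptors, 38.8 ± 2.44. Runx3, the counterpart of Runx1 in proprioceptors, averaged 1.2 RPKM and was not ranked. All 23 synaptic release genes were ranked. The vesicle protein Sv2c (187, 211 and 206 RPKM) led, and Slc17a6, the vesicular glutamate transporter VGLUT2 (71.9 ± 3.29), was 12.8 ± 3.06 times as high as Slc17a7, which encodes VGLUT1.

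**Figure D3:**
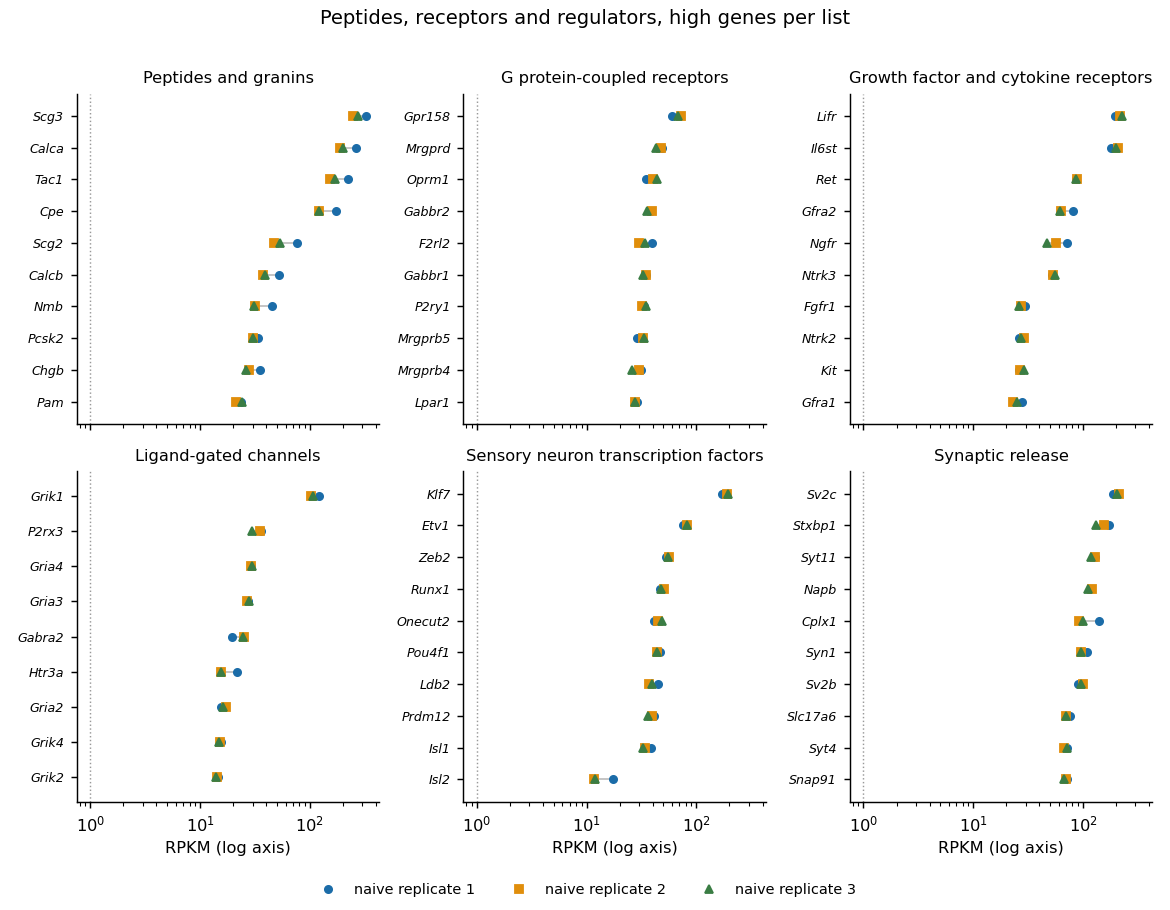
RPKM (horizontal, log axis) of genes from the 10 highest of each of the peptide, receptor, transcription factor and release lists in naive replicates 1 (circles), 2 (squares) and 3 (triangles), with a grey line over their range and a dotted line at 1 RPKM. Calca, Tac1, Calcb and Nmb have replicate 1 to the right of the others, while Lifr, Il6st and Klf7 have it to the left.

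Myelin genes were unevenly represented. Of 25 members 23 were ranked and together they held 0.663% to 0.848% of all RPKM. Pmp22 alone gave 1274, 855 and 950 of the 1986, 1423 and 1573 RPKM of the list in replicates 1, 2 and 3. Pmp22, given above at rank 3, was far above Mbp, the myelin basic protein (38.1 ± 4.88). Drp2 (59.5 ± 2.91), Nfasc (63.8 ± 8.01), Cd9 (63.8 ± 19.7) and Mal (47.2 ± 9.70) lay between. Prx, the periaxin of Schwann cells, had 18.5 RPKM and Mag, an adhesion protein of the inner myelin wrap, 2.07. The factors Sox10 (16.2 ± 1.16) and Egr2 (2.90 ± 1.02), which drive the Schwann cell lineage and myelination, were present, and Gjb1, the gap junction protein connexin 32, averaged 0.19. Nfasc and Cd9 are not particular to Schwann cells.

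All 19 satellite glia genes were ranked. Fabp7, a fatty acid binding protein, had 248, 154 and 170 RPKM (rank 87), and the matrix protein Sparc had 223, 153 and 153 (rank 103). Apoe (90.2 ± 28.4) and S100b (82.9 ± 18.2) followed, both highest in naive replicate 1, whereas Timp3 (70.9, 76.9 and 79.7), Cdh19 (52.5, 53.3 and 55.3) and Ptprz1 (40.4, 39.8 and 43.2) were not. The glutamate transporter Slc1a3 (2.86), the gap junction gene Gja1 (2.36) and Sox2 (1.31) were near the lower end. Several of these genes are also expressed by Schwann cells, neurons or fibroblasts.

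Markers of other cell types were mostly lower. Fibroblast and matrix genes were all ranked, from Dcn, decorin (101 ± 30.5), and Col1a2 (40.0 ± 6.56) downwards. Among vessel genes the pericyte gene Rgs5 had 45.8 ± 0.847 and endothelial Flt1 and Pecam1 had 8.64 ± 0.452 and 3.54 ± 0.552. Of 13 macrophage genes 7 were ranked, led by Lyz2 (30.3 ± 3.88), with Csf1r at 1.29 ± 0.235 and Cx3cr1 and Aif1 under 1. C1qa is listed at 0 in each naive library while C1qb had 2.50, 2.13 and 1.05 RPKM. T and B cell genes averaged under 1, and the neutrophil gene S100a9 had 6.88 ± 0.0786. Of the 6 haemoglobin genes only Hbb-b1 had a read, in naive replicate 2, while Alas2, the haem synthesis enzyme of red cell precursors, had 22.0, 19.2 and 20.7 RPKM. Counting options and gene annotation are not known, so the haemoglobin values do not show that red cell RNA was absent. Central glia markers were near the bottom, with Aqp4 at 3.79 ± 0.623 and Gfap, Mog, Olig1, Olig2 and Mobp under 1. The genes of ribosomal proteins summed to 0.713% ± 0.125 of all RPKM.

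**Figure D4:**
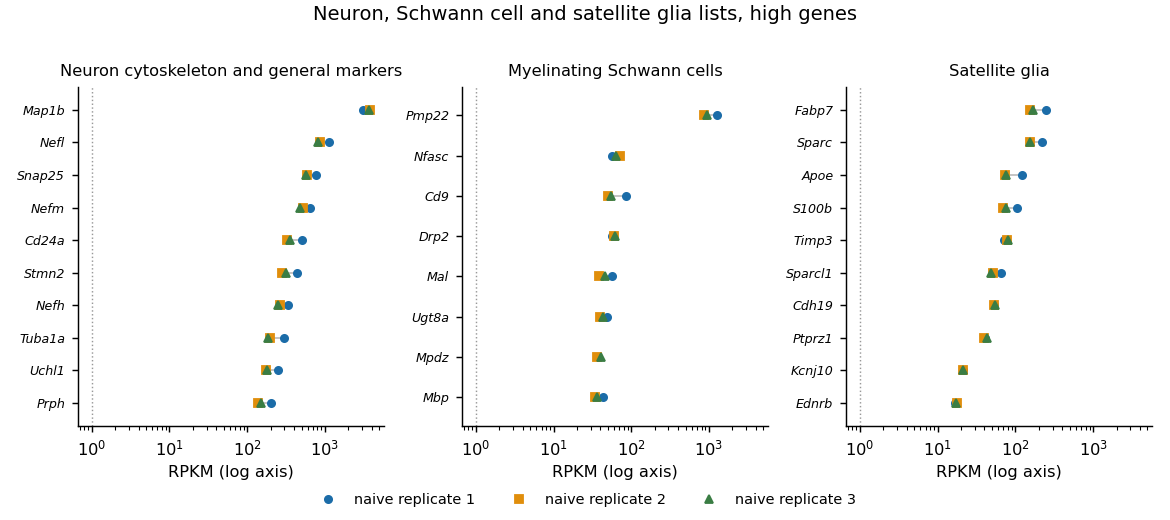
RPKM (horizontal, log axis) of genes from the 10 highest of each of the neuron cytoskeleton, myelinating Schwann cell and satellite glia lists in naive replicates 1 (circles), 2 (squares) and 3 (triangles), with a grey line over their range and a dotted line at 1 RPKM. Map1b and Pmp22 stand apart at the top of their lists, and Fabp7, Sparc, Apoe and S100b have replicate 1 to the right of the others.

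The spread between naive libraries depended on depth and on length. The median coefficient of variation was 28.5% in the 431 genes with fewer than 30 reads on average and 5.78% in the 810 genes with 3000 to 10000 reads, where counting alone would give 24.5% and 1.50%. Naive replicate 1 was the highest of the 3 in 6375 and the lowest in 3345 of the 12495 ranked genes. Relative to the mean of replicates 2 and 3, its median fold was 1.20 in the 2499 shortest genes (up to 1608 bases) and 0.945 in the 2496 longest (from 5055 bases). By GC content of the exons it went from 1.03 in the 2476 genes of lowest GC to 1.14 in the 2476 of highest. These levels were not scaled, and the trimmed-mean scaling factors were 1.05, 0.951 and 0.978 in replicates 1, 2 and 3. A general difference between the libraries is thus part of these folds and counts. Short genes such as Calca, Tac1, Fabp7, Apoe and Uchl1 were highest in replicate 1, and long genes such as Map1b, Scn9a, Kcna1 and Lifr were lowest there. Some genes went the other way, such as Klf7 of 1336 bases (172, 191 and 195 RPKM in replicates 1, 2 and 3). The part of length or GC in single genes was not tested.

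**Figure D5:**
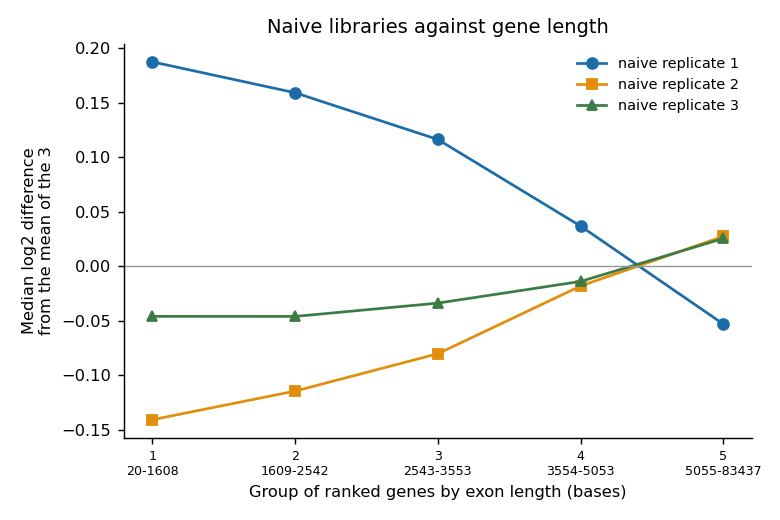
Median log2 difference of each naive library from the mean of the 3 (vertical) over 5 equal groups of ranked genes by exon length in bases (horizontal, ranges under the axis). Replicate 1 goes from 0.187 in the shortest group to -0.0532 in the longest, replicate 2 from -0.141 to 0.0272, and replicate 3 changes least.

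Between-library ratios were small for most genes. Among genes with a mean of 5 RPKM or more, the median ratio of the highest to the lowest naive library was 1.20. The 15 genes with the largest ratios were all short RNA genes of 42 to 112 bases, from Mir7233 (10.2, on 1 to 12 reads) to Mir344d-3 (4.06, on 4 to 19 reads), including Scarna9, Snord11, Snord42a, Snora31 and Mir133c. Since those rest on few reads, genes of 500 bases or more were also examined, a limit chosen after the values were seen. The largest ratio was then 3.63 for Erdr1 (6.82, 2.68 and 9.75 RPKM). The next were Ifit1, an interferon-induced gene (17.5, 6.12 and 10.8 RPKM), the antigen presentation gene H2-Aa (8.22, 3.07 and 5.55), Tctex1d2 (13.0, 10.0 and 4.91) and Ifitm3, an interferon-induced membrane protein (19.8, 7.54 and 9.25). Pcbd1, Ifit3, Cib2, Ifitm2, Polr2e, Spag7, Maf1, Rpl29, Rab27a and Lyrm2 completed the 15 largest, with ratios of 2.37 to 2.61. Naive replicate 1 was the highest in 13 of these 15 genes, as it was in 6375 of the 12495 ranked genes.

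The same lists were then followed after nerve injury, with the naive libraries as the shared control of all 3 comparisons. In limma with Benjamini-Hochberg adjustment over 14195 genes and a threshold of 0.05, 20 of 390 tested members of the 16 lists were higher at day 1 and 19 were lower (10% in all). Of all genes tested, 3.43% were called at day 1, 2.6% higher and 0.831% lower. At day 3, 75 members (19.2%) were called, 24 higher and 51 lower, against 5.67% of all genes (3.72% higher and 1.95% lower). At day 7, 33 members (8.46%) were called, 13 higher and 20 lower, against 2.92% of all genes (2.32% higher and 0.599% lower). The median log2 difference of the 390 members was -0.10, -0.16 and -0.14 at days 1, 3 and 7, and that of all genes was within 0.01 of 0. Genes were kept for the fit at 1 RPKM in any 3 of the 12 libraries. Members under 1 RPKM in each naive library, such as Npy, thus passed only through injured libraries. They could hardly be called lower, yet they are counted here. Without scaling of the libraries the day 1 split was 18 higher and 26 lower. The counts moved by more than 1.5 times when single libraries were left out, and at days 1 and 7 the split moved with them. At day 1, dropping naive replicate 1, 2 or 3 left 14 higher and 7 lower, 15 and 8, or 15 and 7, and dropping day 1 replicate 1 left 14 and 6. At day 3, dropping naive replicate 2 or 3 left 18 higher and 26 lower or 16 and 28, and dropping day 3 replicate 2 left 18 and 31. At day 7, dropping naive replicate 2 or 3 left 11 higher and 8 lower or 11 and 5, and dropping day 7 replicate 1 left 17 and 33. With only naive and day 7 libraries fitted, the day 7 split was 12 higher and 8 lower, and without both libraries rich in muscle RNA it was 9 and 3. Lower members thus did not outnumber higher ones at day 7 in 4 of these alternatives, while at day 3 lower members outnumbered higher ones in each of the 15 alternatives.

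Several peptides rose after injury. Of these, Gal, Npy and Nts were low in naive ganglia, while Adcyap1 was not (17.8 RPKM on average). Cartpt, which was low at 3.26 RPKM, was called at no day. Gal, which encodes galanin, rose from 2.40, 1.79 and 2.64 RPKM in naive ganglia to 19.7, 12.6 and 17.5 at day 1, 64.7, 93.2 and 76.9 at day 3 and 32.2, 77.9 and 72.4 at day 7. As differences of log2(RPKM + 0.5), a scale that makes changes of low genes look smaller, these were 2.62 ± 0.248 (SE), 4.80 and 4.35, with limma adjusted p of 7.87e-05, 2.17e-07 and 6.97e-07. Npy, which encodes neuropeptide Y and was at 0.640, 0.109 and 0 RPKM in naive ganglia, reached 8.17, 4.40 and 6.54 at day 1 and 18.5, 32.5 and 21.8 at day 7 (log2 differences 3.28 and 5.09, limma adjusted p 2.44e-05 and 4.52e-07). The size of the Npy difference depends on the pseudocount, with 4.68 and 6.56 at a pseudocount of 0.1. Npy also passed the filter only through injured libraries, where it was high, so its tests add little to the values. Nts rose at day 3 to 37.6, 59.2 and 42.3 RPKM (log2 difference 3.51, limma adjusted p 1.84e-05), and Adcyap1 at day 1 to 94.7, 65.4 and 78.5 (2.12, 1.18e-05). In contrast, the peptides that led the naive profile passed no test, with Calca at -0.12, -0.16 and -0.31 and Tac1 at -0.11, -0.35 and -0.37 on the log2 scale at days 1, 3 and 7 (limma adjusted p from 0.404 to 0.872).

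Members of several channel and receptor lists were lower after injury. The nicotinic subunit Chrna6 fell at day 1 to 3.48, 4.93 and 5.19 RPKM (log2 difference -1.36, limma adjusted p 0.00019), and Mrgprb5 to 5.50, 13.2 and 12.5 (-1.64, 0.00404). The transcription factor Onecut1 went from 5.66, 5.85 and 6.29 to 2.72, 2.44 and 2.72 RPKM (-1.04, limma adjusted p 0.00383). At day 3, Dpp10 fell to 20.7, 22.2 and 24.7 RPKM (-1.16, 0.000103) and Ano3 to 77.0, 85.3 and 88.5 (-0.94, 0.00272). Of the 14 tested sodium channel subunits 4 were lower at day 3 (28.6%, against 1.95% of all genes) and 2 at day 7 (14.3%, against 0.599%). None was called at day 1, where 4 had an unadjusted p under 0.05 and voom on recovered reads called 1. Scn10a had 133, 136 and 159 RPKM at day 3 (-0.56 ± 0.13 (SE), limma adjusted p 0.0181) and was not called at day 1 (0.837) or day 7 (0.238). The Scn10a call at day 3 was lost without naive replicate 2 (limma adjusted p 0.0872) or 3 (0.0770) and without day 3 replicate 1 (0.0627) or 2 (0.0936), with log2 differences of -0.51 to -0.56.

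Of 56 tested potassium channel members, 16 were lower at day 3 (28.6%, against 1.95% of all genes) and 8 at day 7 (14.3%, against 0.599%). At day 1, 2 were lower (3.57%), near the 3.43% of all genes called in either direction, of which 0.831% were lower. None was higher at any day, nor with voom on recovered reads. Of all genes 2.6%, 3.72% and 2.32% were called higher at days 1, 3 and 7, and at such shares few of 56 members would be. The lower members at day 7 included Cplx2, a complexin of synaptic vesicles (10.8, 14.6 and 13.4 RPKM against 21.9, 22.2 and 19.3 in naive, log2 difference -0.72, limma adjusted p 0.00228), Kcnmb1 (-0.71, 0.00928) and Scn4b (-0.55, 0.00951). The Kcnmb1 call was lost without naive replicate 1 (log2 difference -0.62, limma adjusted p 0.0539), without scaling (-0.68, 0.0577) and without both muscle-rich libraries (-0.61, 0.147). The Scn4b call was lost with only the 2 groups fitted (log2 difference -0.56, limma adjusted p 0.0663) or without those 2 libraries (-0.62, 0.0512). Among higher members, Cacna2d1 reached 328, 301 and 280 RPKM at day 3 (log2 difference 1.46, limma adjusted p 0.000233), and Gfra1 rose at day 1 to 51.5, 45.7 and 54.5 RPKM (0.99, 0.000325). Stmn4 rose at day 7 to 6.74, 13.8 and 7.92 RPKM (2.36, limma adjusted p 5.35e-05).

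In the satellite glia list, Atp1b2, a sodium pump subunit, and Glul, glutamine synthetase, were higher and Ednrb, an endothelin receptor, was lower at day 1. These were 3 of 19 tested members (15.8%, against 3.43% of all genes). Glul alone was called at day 3 (5.26% of the list, against 5.67% of all genes) and none at day 7, where 2 had an unadjusted p under 0.05 and voom called none. Of 23 tested myelin genes 1 (4.35%), Pmp2, was lower at day 1, and none was called at days 3 or 7, where 2 and 0 had an unadjusted p under 0.05 and voom called none. Each of these day 1 calls was lost in at least 1 refit that left out a library, at a limma adjusted p of up to 0.0904 for Pmp2 (without day 1 replicate 1), 0.0539 for Atp1b2 (without naive replicate 1), 0.195 for Glul (without day 1 replicate 1) and 0.0813 for Ednrb (without naive replicate 2). The Glul call at day 3 was lost without naive replicate 3 (0.0655). Pmp22 was not called, with log2 differences of -0.10, 0.15 and 0.05 and limma adjusted p from 0.793 to 0.966, and its sign at days 1 and 7 changed when single libraries were left out.

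Genes with a pattern most like that of each marker were looked up over all 12 libraries by Pearson's r of log2 values. For Scn10a these were Scn11a (r = 0.967), the sorting receptor Sorl1 (0.964), Osbpl3 (0.960), Mgat4a (0.950) and N28178 (0.944). For Calca they were Abhd12 (0.959), Olfm1 (0.952), Dpcd (0.949), Trnp1 (0.944) and the mitochondrial enzyme Mdh2 (0.942). The 2 lists held no gene in common. These are the highest values among all genes tested, and the libraries share day of injury and the length trend above.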

How the data were processed

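Dorsal root ganglion RNA was extracted with Trizol and RNeasy columns with DNase, amplified with a Nugen Ovation kit from 500 pg and made into TruSeq Nano libraries, per the labels. The tools named in the submitters' processing notes are STAR, HTSeq, limma, edgeR and bcl2fastq 2.17, without their roles, and the build is mm10. The authors deposited RPKM per gene symbol, a unit inferred from the values. The sources used here do not give counting options, strandedness or gene annotation, so reads of overlapping, antisense or near-identical genes cannot be told apart, and no mitochondrially encoded gene was analysed here. No unnamed column of sample values was found.

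Whole reads were recovered for 21597 of 21597 detected genes (100%, tolerance 0.05 reads), which gave library sizes and gene lengths. Counting error does not include amplification, since without molecular identifiers amplified reads are not separate molecules. Of 24060 symbols, 22776 (94.7%) were found in GENCODE M21 (GRCm38), which gave coordinates, biotypes and GC content. Promoters and miRNAs are from RefSeq, GRCm38.p6. Because fewer than 80% of ranked protein-coding genes had a promoter in that table, a comparison of promoter composition between expressed and silent genes was void and is not reported.

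Levels are means over 3 unscaled naive libraries. For the comparison with injury, genes with 1 RPKM in at least 3 of 12 libraries were kept (14195), libraries scaled by trimmed means (30% of log ratios, 5% of levels), values taken as log2(RPKM + 0.5) and fitted in limma 3.58.1 (R 4.3.3) with 4 group means, 8 residual degrees of freedom, a variance trend and robust moderation. The two-sided p-values were adjusted by Benjamini and Hochberg's method over the 14195 genes. An exact permutation test of 3 against 3 libraries cannot go below 0.1. The fit was tested on simulated data. Replicate numbers did not pair the libraries.

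Named were the 30 highest genes, up to 8 per role of each list, Scn10a and Calca, list members under 1 RPKM, the 15 most variable genes, up to 4 called members per day and direction, and the 5 genes most like each marker. Some genes that these rules choose are not reported here. Other genes, such as Cacna2d1 or Nefh, were named after their values were seen. The members, lists and rules were chosen with earlier results of these data known. Other thresholds, scalings, pseudocounts, filters and left-out libraries were tried.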

Additional observations from a re-analysis of the deposited data

Results flagged for a closer look

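The contrast between days was followed for Gal, Npy, Nts, Adcyap1, Cplx2, Ano3, Chrna6, Dpp10, Gfra1, Kcnmb1, Mrgprb5, Onecut1, Scn4b and Stmn4. Of these, the first 5 differed between some days in limma with an adjusted p under 0.05. For other genes named above, such as Scn10a, Calca, Cacna2d1 and Glul, this contrast is not given here. The shared naive libraries cancel in this contrast. Of all 14195 genes, 54 were higher and 18 lower at day 3 than at day 1. At day 7, 87 were higher and 51 lower than at day 1. The genes followed here had been chosen by a small adjusted p against naive in these same data. Gal was higher than at day 1 by 2.17 at day 3 and by 1.73 at day 7 on the log2(RPKM + 0.5) scale (limma adjusted p 0.00412 and 0.00683). Npy was higher than at day 1 by 1.49 and 1.82 (0.04 and 0.00975), and Nts by 2.20 and 2.16 (0.00675 and 0.00467). Adcyap1 fell by 1.10 from day 1 to day 7 (0.00994) and Cplx2 fell by 0.55 (0.0355). Between days 3 and 7, 0 of all 14195 genes passed the threshold in either direction, so the genes named do not stand out there. Groups of 3 libraries are too small for the test of a single outlying sample.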

How the results depend on the processing

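The count of ranked genes was 7361 at a threshold of 5 RPKM and 13912 at 0.5 RPKM, 13315 with a mean of 1 RPKM, and 12702 to 12758 with 1 naive library left out. Counted in recovered reads, the 10 and 100 highest genes held 9.05% and 22.4%, and ranked by reads, a choice made after seeing the data, 11.9% and 26.1%. Without genes under 200 bases, also chosen after seeing the data, the 100 highest held 17.0%. With 1 naive library left out the shares ran from 6.08% to 6.47% and from 17.1% to 17.4%. Of the 30 highest genes, 27 to 30 stayed under the other averages, scalings and left-out libraries and without short genes. The share without mitochondrially encoded genes was not run, since the values hold none.

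Called list members ran from 20 to 35 at day 1, 44 to 60 at day 3 and 16 to 50 at day 7 with 1 library left out. With the muscle-rich naive replicate 1 and day 7 replicate 2 both left out they were 22, 57 and 12, and at day 7 they were 53 with voom on recovered reads and 20 with only the 2 groups fitted. The cause was not tested. With the replicate block, whose numbers did not pair the libraries (3 of 18 same-numbered pairs correlated over 0.1), counts were 29, 64 and 27. Refits were run for the genes whose differences or calls after injury are given. Of these refits 544 kept direction and call, 32 lost the call and 9 turned. Lost calls were those of Pmp2, Atp1b2, Ednrb and Glul at day 1, Scn10a and Glul at day 3, and Kcnmb1 and Scn4b at day 7. Only uncalled differences turned. With 1 library left out, Calca ran from -0.26 to 0.0046 at day 1 and from -0.30 to 0.049 at day 3, Tac1 from -0.21 to 9.3e-05 at day 1, and Pmp22 from -0.25 to 0.045 at day 1 and from -0.058 to 0.28 at day 7. Pmp22 at day 1 was 0.027 without both muscle-rich libraries. Leaving out 1 library moved none of the refitted folds by over 1.5 times. Depth limits genes near 1 RPKM and short RNAs most.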
